A study of Mus musculus with 16 samples.

Results

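The fibroblast growth factor (FGF) genes of the developing mouse heart are described here, with their receptors and the genes that the pathway switches on to restrain or relay its own signal. Members were every probe set that names a single gene and whose symbol in the platform annotation is a numbered Fgf, Fgfr1 to Fgfr4, Fgfrl1, Spry1 to Spry4, Spred1 to Spred3, Dusp6, Il17rd, Etv4 or Etv5. This gave 38 genes on 41 probe sets, of 21640 probe sets that name 1 gene and 34760 on the array. There were 22 FGF genes, 5 receptor genes, 9 feedback inhibitors and 2 ETS transcription factors of the Pea3 group, and Etv5, Il17rd and Spred2 each had 2 probe sets. The rule uses symbols and no measured value, though it was set with earlier results of these data known.

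Chd7 encodes a chromatin remodeller, and the study asked what its loss from the anterior mesoderm does to transcription in the heart. Total RNA of 16 whole hearts of strain C57BL/6 (C57Bl/6 J in the study's methods) was hybridised to Affymetrix Mouse Gene 1.0 ST arrays, with 4 individual hearts in each of 4 groups: Chd7 fl/fl;Mesp1-Cre embryos (mutant hearts) and controls, each taken at E11.5 or E13.5, the embryonic age in days. The mutant hearts carried 2 floxed Chd7 alleles and the Mesp1-Cre driver, which is active in the early anterior mesoderm that gives rise to both heart fields and to pharyngeal muscle. Cells of other origin, neural crest among them, keep Chd7 in these mutants. The controls are labelled WT in the deposited titles, while the study's methods give them as Chd7+/+;Mesp1-Cre. The labelled cross of Chd7 fl/+;Mesp1-Cre with Chd7 fl/fl mice cannot yield that genotype, so the Chd7 and Cre alleles of the controls are not settled here.

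FGF ligands bind receptor tyrosine kinases together with heparan sulphate, and the activated receptor signals mainly through RAS and ERK. The pathway is held in check by inhibitors that it induces itself, so the mRNA of Spry, Spred and Dusp6 genes is widely used as a readout of FGF and ERK activity. In the heart, Fgf8 and Fgf10 mark and act on the second heart field that builds the outflow tract, while Fgf9, Fgf16 and Fgf20 act between epicardium, endocardium and myocardium to drive growth of the ventricular wall.

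Values are log2 intensities, and a gene with several probe sets is given by its brightest one unless stated. A probe set's level depends on its probes, so members were compared between hearts and not with each other. Differences were tested with limma over all 34760 probe sets with Benjamini-Hochberg adjustment. A probe set was called where its adjusted p was under 0.05 and its log2 fold change over 0.5 in size. Probe sets for olfactory receptors, the odorant receptors of the nose, were taken as a floor: 8 members had a mean at or below 6.30, the 95th percentile of the means of 1035 such probe sets, and 30 lay above it. The members near the floor were Fgf3, Fgf6, Fgf7, Fgf10, Fgf14, Fgf16, Fgf20 and Spry3.

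Chd7 itself averaged 9.46 ± 0.29 in mutant hearts and 10.75 ± 0.13 in controls at E11.5 (SD, n = 4 each), and 8.97 ± 0.08 in mutant hearts and 10.06 ± 0.24 in controls at E13.5. That is a level of 40.8% and 47.3% of control by fold change, with limma's adjusted p of 0.0013 and 0.021. Cardiomyocyte markers lay between 12.8 and 13.2 as a list mean in every group. The list means of foregut epithelium and liver markers lay between 6.02 and 7.44. Hearts with high Y-linked transcripts numbered 2 of 4 mutants and 4 of 4 controls at E11.5, and 1 of 4 mutants and 2 of 4 controls at E13.5. Each array correlated with the others of its group at a mean r of 0.971 to 0.991. Hearts are numbered as labelled, which for the E13.5 controls is 1, 2, 4 and 5, and values are given in that order.

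None of the 38 members differed between mutant and control hearts by the adjusted test, at either stage or averaged over both. At E11.5 the call rule took 0.273% of all probe sets, at E13.5 0.0374% and for the average 0.38%. The members' median log2 fold change was -0.04 at E11.5 and -0.003 at E13.5, beside 0.006 and 0.005 over all probe sets. The difference of the mutant effects between the stages passed an adjusted p of 0.05 for 0 members and for 0% of all probe sets. The 95% interval of the mutant minus control difference lay wholly within 0.5 log2 units of 0 for 20 of the 38 members at E11.5 and for 23 of the 38 at E13.5. For the others it reached beyond. As these are whole hearts, a lower value can stem from fewer cells of a type or from less RNA per cell, which cannot be told apart.

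**Figure D1:**
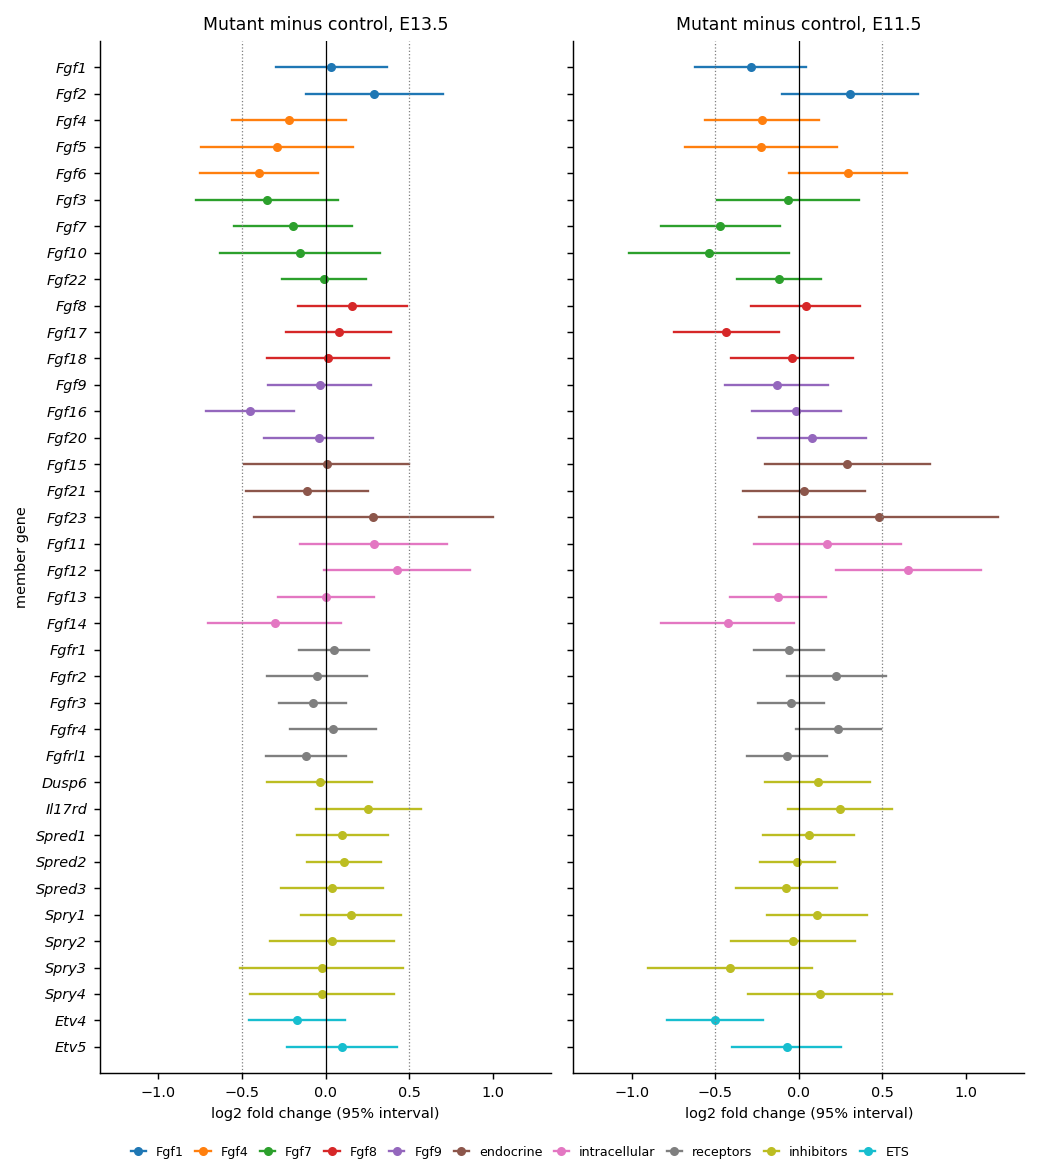
Log2 fold change of mutant over control hearts for each of the 38 members, with E13.5 on the left and E11.5 on the right. Points are limma estimates from 4 hearts a group, bars are 95% intervals, colours give the subfamily or role, and dotted lines mark 0.5 in either direction. At E11.5 the estimates run between -0.54 (Fgf10) and 0.66 (Fgf12), and at E13.5 between -0.45 (Fgf16) and 0.43 (Fgf12).

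Without adjustment, 3 members passed p under 0.05 with a log2 fold change over 0.5 at E11.5, which is 7.89% of the members against 4% of all probe sets. They were Etv4, Fgf10 and Fgf12. Dropping the fold threshold too, 6 members passed at E11.5 (15.8% against 9.49%), 2 at E13.5 (5.26% against 3.43%), 8 for the average (21.1% against 7.82%) and 3, Fgf6, Fgf16 and Fgf17, for the difference of the effects (7.89% against 4.36%). With the fold threshold kept, 0 members passed the unadjusted rule at E13.5, where it took 1.29% of all probe sets, and Fgf12 alone did for the average (2.63% against 1.31%). Groups that did not overlap were seen for Etv4, Fgf12 and Fgf7 at E11.5 (7.89% of members, against 3.46% of all probe sets) and for Fgf16 at E13.5 (2.63% against 3.56%).

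Etv4 encodes a Pea3-group ETS factor that is transcribed in response to FGF and ERK signalling. Its values were 6.90, 7.05, 6.62 and 7.28 in the mutant E11.5 hearts, against 7.57, 7.38, 7.59 and 7.31 in the E11.5 controls. Every mutant heart was below every control, with mutant 4 closest to control 4. The log2 fold change was -0.50 (SE 0.13, limma unadjusted p = 0.0021, adjusted p = 0.18). At E13.5 the mutants gave 7.25, 7.10, 7.23 and 7.52 and the controls 7.53, 7.42, 7.53 and 7.31, overlapping groups with a log2 fold change of -0.17 (95% interval -0.46 to 0.12). The difference between the 2 stages' effects was not called (0.33, adjusted p = 1).

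Etv1, the remaining Pea3-group gene, is no member by the rule and belongs to a list of 17 ERK-responsive genes. It averaged 9.46 ± 0.25 in mutants and 10.12 ± 0.05 in controls at E11.5, and 9.72 ± 0.33 in mutants and 10.27 ± 0.10 in controls at E13.5 (SD, n = 4 each). Over both stages it was called, with a log2 fold change of -0.61 (SE 0.11, limma adjusted p = 0.014), while neither stage alone was (adjusted p = 0.092 and 0.56). The call was lost with the Y-linked level as a covariate (-0.57, adjusted p = 0.072) and with a replicate block (-0.63, adjusted p = 0.10), though it held without each single heart (adjusted p between 0.0051 and 0.043). At E11.5 alone it was called, unadjusted p aside, in 3 alternatives: without mutant heart 3 (-0.79, adjusted p = 0.042), with a trended and robust prior (adjusted p = 0.045) and with single-gene probe sets only (adjusted p = 0.047). The study itself reports Etv1 as lower at E11.5 after multiple testing correction, a call that the main fit here did not give. Of the 17 ERK-responsive genes no other was called here in a mutant comparison. At E11.5 the list had a median log2 fold change of 0.08 and a highest estimate of 0.72. By the unadjusted rule with the fold threshold, 2 of its genes were higher and 1, Etv1, lower, where the rule took 4% of all probe sets. At E13.5 the median was -0.02 and the highest estimate 0.33, with 0 higher and 1 lower (1.29% of all probe sets). Etv5 was not called between genotypes on either probe set, with E11.5 estimates of -0.07 and -0.02 and E13.5 estimates of 0.10 and 0.01.

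Fgf10 is a ligand made in the anterior second heart field. It had 5.38, 6.34, 5.83 and 6.08 in the mutant E11.5 hearts and 6.46, 6.62, 6.06 and 6.64 in the controls, a log2 fold change of -0.54 (95% interval -1.02 to -0.06, limma unadjusted p = 0.031, adjusted p = 0.47). Mutants 2 and 4 lay above control 3, and the values ran on both sides of the olfactory floor. At E13.5 the mutants had 6.33, 5.72, 5.27 and 5.71 and the controls 5.90, 5.64, 6.11 and 5.99, with no separation and a log2 fold change of -0.15 that was 0.0095 without mutant 3. Isl1, a second heart field transcription factor, differed by -0.44 at E11.5 without being called. It had the lowest estimate of 4 second heart field and pharyngeal markers, whose median was -0.12. The mean of the 4 at E11.5 lay at 7.93 to 8.15 in mutants and 8.08 to 8.25 in controls. By Islet-1 staining, the study found undifferentiated second heart field progenitors spread alike in mutant and control outflow tracts. The part of such cells in the Fgf10 value was not tested.

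Fgf7, whose product signals from mesenchyme to epithelium through Fgfr2, gave 5.87, 6.26, 6.06 and 5.83 in E11.5 mutants and 6.46, 6.42, 6.74 and 6.27 in controls. The highest mutant was just below the lowest control, and the log2 fold change was -0.47 (limma unadjusted p = 0.013, adjusted p = 0.36). At E13.5 Fgf7 differed by -0.19 with overlapping groups. Its subfamily also holds Fgf10, described above, and Fgf3 and Fgf22, with E11.5 estimates of -0.06 and -0.12 and E13.5 estimates of -0.35 and -0.01. Markers of cushion mesenchyme differed in the same direction: the mean of 4 of them (Postn, Sox9, Twist1 and Prrx1) lay at 9.65 to 9.96 in mutants and 10.001 to 10.387 in controls at E11.5, and at 9.55 to 9.94 in mutants and 10.004 to 10.227 in controls at E13.5, with none of the 4 called. Their part in the ligand values was not tested.

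Fgf12 was the member with the largest positive estimate. It encodes an intracellular FGF homologous factor, which is not secreted and binds voltage-gated sodium channels. Its values were 8.79, 7.94, 8.07 and 8.28 in mutant E11.5 hearts and 7.82, 7.30, 7.71 and 7.64 in controls, and 9.31, 8.67, 9.09 and 9.03 in mutant E13.5 hearts and 8.25, 8.51, 9.07 and 8.56 in controls. All mutants were above all controls at E11.5, while at E13.5 control 4 reached the mutant range. The log2 fold change was 0.66 at E11.5 (limma adjusted p = 0.27), 0.43 at E13.5 (adjusted p = 1) and 0.54 averaged over both stages (95% interval 0.23 to 0.85, adjusted p = 0.19). The list mean of 5 epicardial markers, none of them called, was 10.23 to 10.76 in mutants and 10.07 to 10.28 in controls at E11.5, and 10.21 to 11.11 in mutants and 10.12 to 10.37 in controls at E13.5. Cardiomyocyte markers differed by a median of 0.04 and -0.01, and the part of either cell type in the Fgf12 value was not tested.

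The other FGF homologous factors had estimates of either sign, none called. At E11.5 Fgf11 differed by 0.17, Fgf13 by -0.12 and Fgf14 by -0.42, and the E13.5 differences were 0.29, 0.005 and -0.30. Fgf14 lay in the olfactory range, at 5.59, 5.67, 5.79 and 5.44 in E11.5 mutants and 6.10, 5.44, 6.38 and 6.27 in controls (limma unadjusted p = 0.038, adjusted p = 0.49).

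At E13.5 the smallest p-value among members was that of Fgf16, a ligand of the Fgf9 subfamily. Mutant hearts had 5.65, 5.93, 5.41 and 5.84 and controls 6.19, 6.05, 6.21 and 6.20, with every mutant below every control and all 8 hearts below the olfactory 95th percentile. The log2 fold change was -0.45 (95% interval -0.72 to -0.19, limma unadjusted p = 0.0024, adjusted p = 0.57), and at E11.5 it was -0.02. Fgf16 is X-linked and the groups differed in the number of hearts with high Y-linked transcripts. With the Y-linked level as a covariate the log2 fold change was -0.43. Fgf9 and Fgf20, the other ligands of this subfamily, differed by -0.04 each at E13.5.

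Fgf6, a ligand known from skeletal muscle, had opposite estimates at the 2 stages, both at the floor. At E13.5 its values were 5.73, 5.93, 5.41 and 5.61 in mutants and 5.90, 5.83, 6.41 and 6.14 in controls (log2 fold change -0.40). At E11.5 they were 5.59, 6.16, 6.12 and 6.15 in mutants and 5.72, 5.44, 5.81 and 5.88 in controls (0.29). The difference between these effects was -0.69 (unadjusted p = 0.0099, limma adjusted p = 1). Fgf4 and Fgf5, grouped with Fgf6, had E11.5 differences of -0.22 and -0.23 and E13.5 differences of -0.22 and -0.29.

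**Figure D2:**
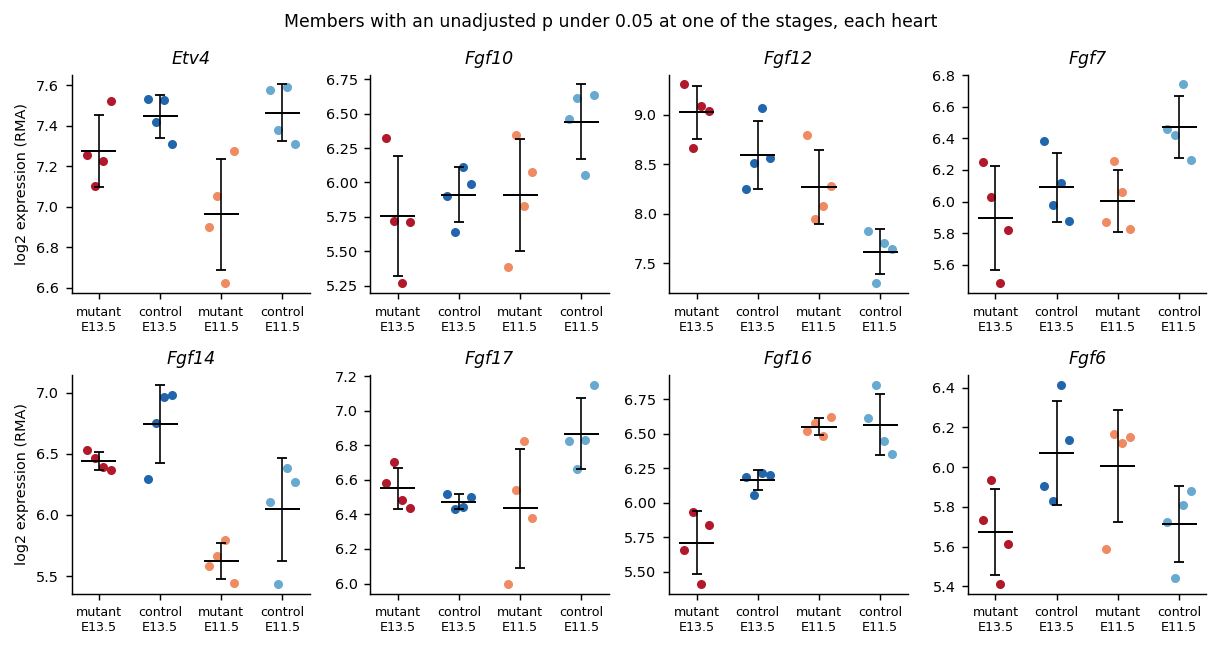
Log2 expression in each heart for the 8 members with an unadjusted p under 0.05 at one of the stages. Dots are hearts, horizontal lines are means of 4 and bars are SD, and each panel has its own vertical axis. Mutant and control hearts at E11.5 are separate for Etv4, Fgf12 and Fgf7, and at E13.5 for Fgf16.

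Fgf8, the second heart field and pharyngeal ligand most often tied to outflow tract and arch artery development, gave 7.53, 7.58, 7.88 and 8.06 in mutant and 7.77, 7.59, 7.89 and 7.63 in control hearts at E11.5. The groups overlapped throughout, with a log2 fold change of 0.04 and a 95% interval of -0.29 to 0.37. At E13.5 the difference was 0.16 (95% interval -0.17 to 0.49). Its close relatives Fgf17 and Fgf18 had E11.5 differences of -0.43 and -0.04 and E13.5 differences of 0.08 and 0.01. For Fgf17 the E11.5 values were 6.00, 6.54, 6.82 and 6.38 in mutants and 6.83, 6.66, 6.83 and 7.15 in controls, with mutant 3 inside the control range (limma unadjusted p = 0.011, adjusted p = 0.33).

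Fgf1 and Fgf2, ligands without a classical secretion signal, differed by -0.29 and 0.31 at E11.5 and by 0.03 and 0.29 at E13.5. The endocrine members, which act at a distance with Klotho coreceptors, were Fgf15, Fgf21 and Fgf23, and their differences at E11.5 were 0.29, 0.03 and 0.48. Fgf23 had the widest scatter of any member: mutant E11.5 hearts gave 7.51, 7.69, 8.22 and 9.30, against 7.44, 7.96, 7.75 and 7.66 in controls. Mutant heart 4 was the highest of all.

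The 4 signalling receptors and Fgfrl1, which binds FGFs without a kinase domain, were close between genotypes. Fgfr1, the main receptor of myocardium and mesenchyme, had 9.85, 9.86, 9.57 and 9.55 in mutant E11.5 hearts and 9.80, 9.76, 9.88 and 9.62 in controls, a difference of -0.06 (95% interval -0.27 to 0.15). With mutant E11.5 hearts 3 and 4 and control E13.5 heart 1 left out together, a set taken over from earlier results on these arrays, it was 0.09. At E13.5 the mutants had 10.25, 10.10, 10.19 and 10.20 and the controls 10.24, 10.11, 10.04 and 10.14, a difference of 0.05 (95% interval -0.16 to 0.26). Mutant and control values of Fgfr1 interleaved at both stages.

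Fgfr2, whose splice forms serve epithelium and mesenchyme, had 9.11, 8.95, 8.97 and 8.93 in mutant E11.5 hearts and 8.75, 8.38, 9.21 and 8.72 in controls. Control 3 was the highest of the 8 and control 2 the lowest, and the difference of 0.22 had a 95% interval of -0.07 to 0.52. At E13.5 mutants gave 9.35, 9.30, 9.39 and 9.14 and controls 9.36, 9.50, 9.27 and 9.25 (difference -0.05). Gene-level probe sets of this kind do not separate its splice forms.

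Fgfr3 was at 7.92, 7.94, 7.92 and 8.03 in mutant E11.5 hearts and 7.98, 8.09, 7.94 and 7.98 in controls. At E13.5 it was at 7.62, 7.84, 7.55 and 7.75 in mutants and 7.96, 7.72, 7.65 and 7.74 in controls, and neither difference (-0.05 and -0.08) left the spread of the hearts. Fgfr4, the receptor with the narrowest known tissue range, had 6.28, 6.50, 6.58 and 6.70 in mutant E11.5 hearts and 6.12, 6.34, 6.49 and 6.15 in controls (difference 0.24, 95% interval -0.02 to 0.49). At E13.5 it had 7.17, 7.11, 7.13 and 6.86 in mutants and 7.22, 6.90, 7.02 and 6.94 in controls, a difference of 0.04. Fgfrl1 differed by -0.07 at E11.5 and -0.12 at E13.5.

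The induced inhibitors had no calls, with estimates between -0.41 and 0.26. Dusp6, the ERK phosphatase, had 9.93, 9.49, 9.83 and 10.34 in mutant E11.5 hearts and 9.73, 9.54, 9.91 and 9.95 in controls, a difference of 0.11 (95% interval -0.20 to 0.43). At E13.5 it had 10.59, 10.40, 10.38 and 10.49 in mutants and 10.54, 10.48, 10.40 and 10.56 in controls, a difference of -0.03 (95% interval -0.35 to 0.28). The Sprouty genes, whose products block receptor signalling to RAS, differed by 0.11 (Spry1), -0.03 (Spry2), -0.41 (Spry3, at the floor) and 0.13 (Spry4) at E11.5. Their E13.5 differences were 0.15, 0.04, -0.02 and -0.02 in the same order.

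Spred1, Spred2 and Spred3, membrane-bound relatives of Sprouty that restrain RAF, differed by 0.06, -0.01 and -0.07 at E11.5 and by 0.10, 0.11 and 0.04 at E13.5. Il17rd (Sef), which holds back receptor and ERK signalling, differed by 0.25 and 0.26 on its brighter probe set. Averaged over the stages this was 0.25 (limma unadjusted p = 0.028, adjusted p = 0.57), while the dimmer probe set gave 0.01. Mutant E11.5 heart 4 was the highest of its group in 7 of the 11 feedback and Pea3 genes and the lowest in none, where it was the highest in 21.5% of all probe sets and the lowest in 29.6%. Other hearts were uneven too. Mutant E13.5 heart 3 and control E13.5 heart 5 were each the lowest in 6 of the 11 and the highest in 1. Mutant E13.5 heart 1 was the highest in 5 and the lowest in 1.

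The rest of the pathway was likewise without calls between genotypes, apart from Etv1. This held for 10 coreceptors and partners, 20 of 21 heparan sulphate proteoglycans and enzymes, and 16 of 23 components between receptor and ERK that had a probe set of their own. The median log2 fold changes of these lists at E11.5 were 0.07, -0.01 and 0.04, and the E13.5 medians 0.01, -0.03 and 0.01.

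Between the stages members were called, as were many other probe sets of the array. Nothing particular to the members is drawn from these counts, which are given beside the array's shares. In mutant hearts 9 of the 38 members were higher at E13.5 than at E11.5 (23.7%, against 15.3% of all probe sets) and 2 were lower (5.26% against 15.4%). In control hearts 9 members were higher (23.7% against 15.3%) and 0 lower (15.1% of all probe sets), and 8 genes were called higher in both genotypes: Dusp6, Fgf1, Fgf11, Fgf12, Fgf14, Fgfr4, Spred1 and Spry2. Fgf13 was called in mutants alone and Fgfr2 in controls alone, a split for which the test of the difference gave 0 calls. These counts use the brightest probe set of each gene. The dimmer ones of Etv5 (higher) and Il17rd (lower) were called in both genotypes, and that of Spred2 (lower) in controls, as described below. The stages did not overlap for 16 members in mutants (42.1% against 36% of all probe sets) and 15 in controls (39.5% against 40.2%). Stage and array batch cannot be told apart. The spread of values within an array also differed, with an SD of 2.38 to 2.42 at E13.5 and 2.18 to 2.26 at E11.5, and the median change of the olfactory receptor probe sets was -0.61 in mutants and -0.56 in controls.

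**Figure D3:**
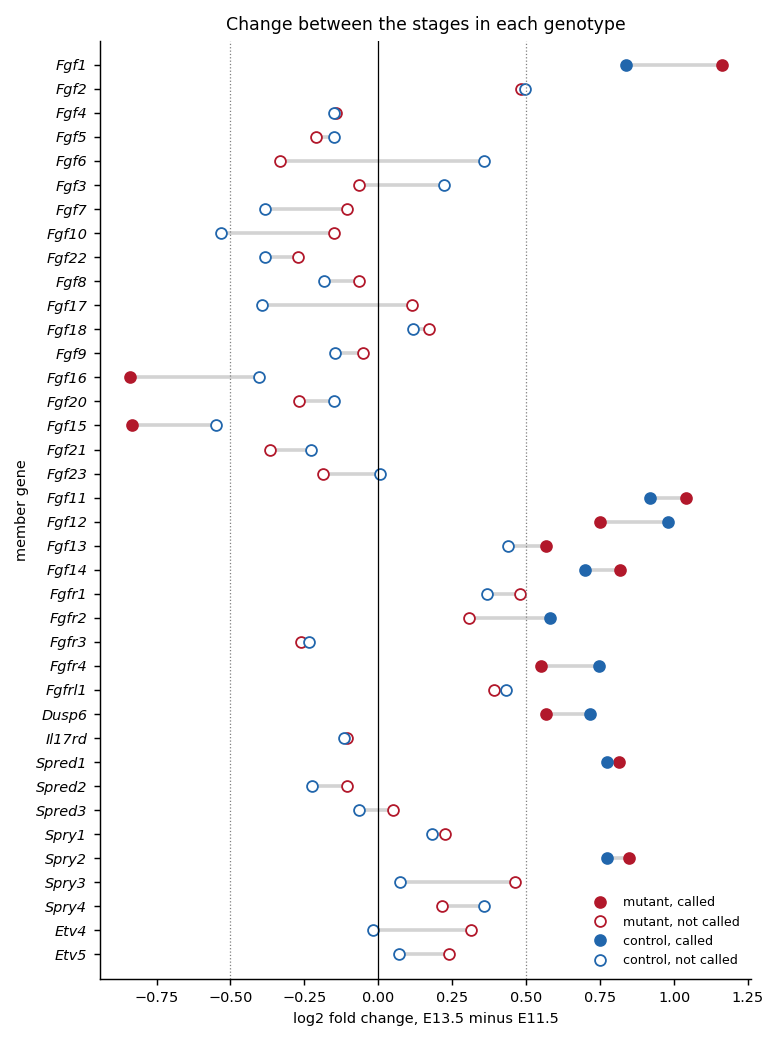
Log2 fold change of E13.5 over E11.5 hearts for each member, in mutant hearts (red) and control hearts (blue), with filled circles where the change was called. Dotted lines mark 0.5 in either direction. Fgf1 rose by 1.16 in mutants and 0.84 in controls, and Fgf16 fell by 0.84 in mutants.

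Members that rose were of 3 kinds. First were induced inhibitors: Dusp6, Spry2 and Spred1 rose in both genotypes, while Spry1, Spry3, Spry4, Spred3 and the brighter probe sets of Il17rd and Spred2 were not called. Because these genes are read as outputs of one pathway, the promoter-proximal sequence of the 3 that rose is printed beside that of Spry1, which was not called, and of Etv5. The windows are the 250 bases before the annotated start, 5′ to 3′ on the strand of the gene, from RefSeq on GRCm38.p6, and 28 of the 38 members had such a window. Capitals mark the ETS core GGAA or its reverse complement TTCC.
Dusp6 (chr10:99262981-99263230, plus strand): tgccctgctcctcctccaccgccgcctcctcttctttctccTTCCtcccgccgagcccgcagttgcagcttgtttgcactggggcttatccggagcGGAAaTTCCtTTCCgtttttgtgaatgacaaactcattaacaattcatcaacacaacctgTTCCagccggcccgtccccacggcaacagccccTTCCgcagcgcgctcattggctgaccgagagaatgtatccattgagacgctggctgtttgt
Spry2 (chr14:105896820-105897069, minus strand): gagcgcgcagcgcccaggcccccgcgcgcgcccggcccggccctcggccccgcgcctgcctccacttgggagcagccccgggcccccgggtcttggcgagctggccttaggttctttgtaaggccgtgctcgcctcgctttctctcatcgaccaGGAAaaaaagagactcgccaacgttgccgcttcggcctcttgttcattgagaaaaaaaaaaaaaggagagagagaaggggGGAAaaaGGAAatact
Spred1 (chr2:117120821-117121070, plus strand): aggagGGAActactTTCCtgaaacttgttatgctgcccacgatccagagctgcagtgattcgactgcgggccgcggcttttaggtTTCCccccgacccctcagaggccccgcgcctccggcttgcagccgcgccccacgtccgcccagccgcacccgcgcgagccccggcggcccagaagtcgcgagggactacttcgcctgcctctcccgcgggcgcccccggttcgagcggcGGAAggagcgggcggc
Etv5, start 1 (chr16:22439571-22439820, minus strand): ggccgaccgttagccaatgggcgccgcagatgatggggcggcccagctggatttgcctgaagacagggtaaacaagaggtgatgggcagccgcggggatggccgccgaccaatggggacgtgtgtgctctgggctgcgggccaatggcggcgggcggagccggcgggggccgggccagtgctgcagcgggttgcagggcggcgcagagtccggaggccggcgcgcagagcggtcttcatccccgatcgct
Etv5, start 2 (chr16:22438369-22438618, minus strand): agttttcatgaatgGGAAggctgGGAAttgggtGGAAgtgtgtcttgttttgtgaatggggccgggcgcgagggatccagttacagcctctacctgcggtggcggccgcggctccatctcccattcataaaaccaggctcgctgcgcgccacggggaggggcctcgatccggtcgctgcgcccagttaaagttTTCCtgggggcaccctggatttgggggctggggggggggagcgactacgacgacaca
Spry1 (chr3:37639697-37639946, plus strand): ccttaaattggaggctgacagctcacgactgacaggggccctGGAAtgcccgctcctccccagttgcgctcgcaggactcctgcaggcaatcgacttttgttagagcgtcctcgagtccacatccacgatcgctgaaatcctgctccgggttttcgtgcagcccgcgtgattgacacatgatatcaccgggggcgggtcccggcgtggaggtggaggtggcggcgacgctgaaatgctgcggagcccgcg

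The Dusp6 window held 6 such cores, Spred1 4, Spry2 3 and Spry1 1, and the 2 Etv5 windows held 0 and 4. Over all 32851 windows of this length 93.4% held at least 1 core, with a median of 3 and quartiles of 2 and 4, so that only Dusp6 lay above the upper quartile. The longer letters CCGGAA (reverse complement TTCCGG) and AGGAAGT (its reverse complement is ACTTCCT), searched on both strands and each containing the core, were in 12% and 7.69% of all windows and in 0 of these 6. A match or its absence is a description of the letters in this stretch only.

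For Dusp6, with the values given above, all E13.5 hearts lay above all E11.5 hearts of their genotype. The log2 fold change was 0.57 in mutants and 0.72 in controls (SE 0.15 each, limma adjusted p = 0.0064 and 0.0014). After quantile normalisation it was 0.32 in mutants and 0.48 in controls, below the threshold on the fold change, and in mutants it was 0.43 without E11.5 heart 2.

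Spry2 gave 9.13, 9.38, 9.18 and 9.18 in E13.5 mutants against 7.97, 8.07, 8.56 and 8.88 in E11.5 mutants. The control hearts gave 9.22, 9.22, 9.24 and 9.05 at E13.5 and 8.46, 8.38, 8.10 and 8.68 at E11.5. Separation was complete in both genotypes, and the log2 fold change was 0.85 in mutants and 0.77 in controls (SE 0.17 each, limma adjusted p = 0.0013 and 0.0026). Spred1 rose by 0.81 and 0.77 (SE 0.13 each), with 9.84, 9.76, 9.73 and 9.95 in E13.5 mutants against 9.17, 8.92, 8.73 and 9.20 at E11.5, and 9.70, 9.87, 9.81 and 9.49 in E13.5 controls against 8.82, 9.05, 8.77 and 9.13 at E11.5. Its lowest E13.5 heart was above its highest E11.5 heart.

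Spry1, next to these in function, averaged 9.26 ± 0.22 in E13.5 mutants and 9.03 ± 0.19 in E11.5 mutants, and 9.11 ± 0.19 in E13.5 controls and 8.92 ± 0.18 in E11.5 controls (SD, n = 4 each). Its change of 0.23 in mutants and 0.18 in controls was not called, with 95% intervals of -0.07 to 0.52 and -0.12 to 0.48. Spry4 changed by 0.21 in mutants and 0.36 in controls, again with no call, and Spred3 by 0.05 and -0.07.

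**Figure D4:**
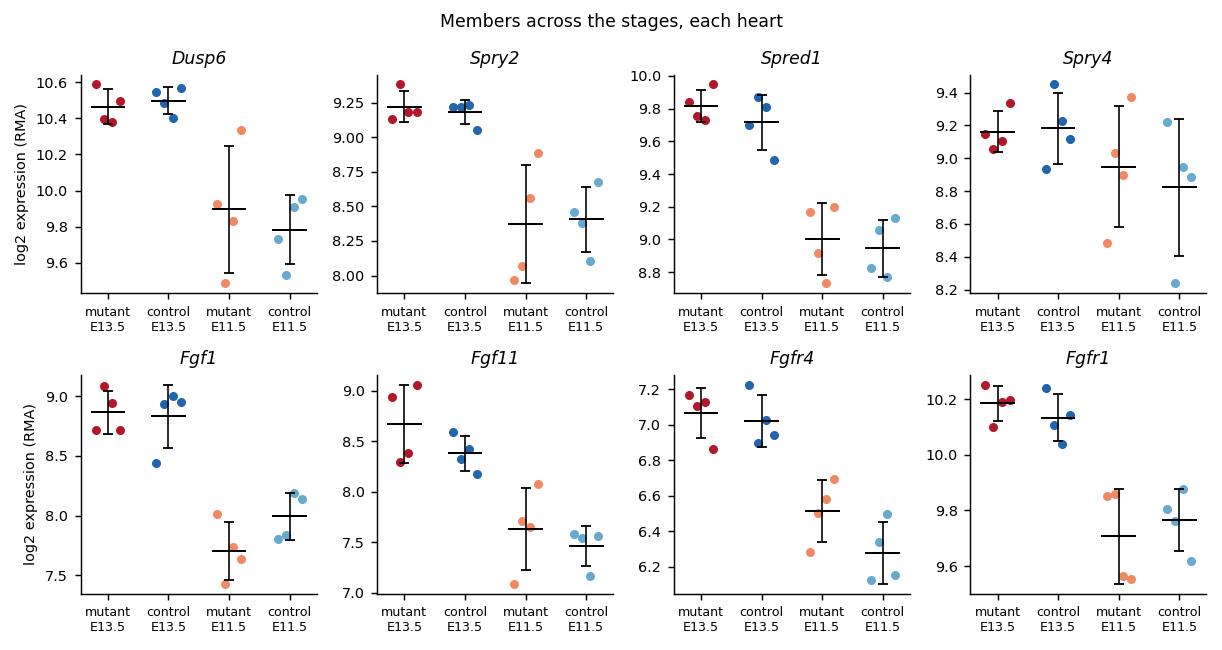
Log2 expression in each heart for 4 feedback inhibitors (upper row) and 2 FGF and 2 receptor genes (lower row). Dots are hearts, lines are means of 4 and bars are SD, with E13.5 to the left of E11.5 and its own vertical axis in each panel. E13.5 hearts lie above all E11.5 hearts of their genotype in every panel but that of Spry4.

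The second set was the FGF homologous factors. Fgf11 rose by 1.04 in mutants and 0.92 in controls, Fgf12 by 0.75 and 0.98, and Fgf14 by 0.82 and 0.70, each with a limma adjusted p of 0.0087 or less. Fgf11 had 8.94, 8.30, 8.38 and 9.06 in E13.5 mutants against 7.09, 7.71, 7.65 and 8.08 in E11.5 mutants, and 8.60, 8.33, 8.43 and 8.18 in E13.5 controls against 7.58, 7.54, 7.16 and 7.56 in E11.5 controls. The 2 stages did not overlap in either genotype. For Fgf12, with the values given above, the E11.5 mutant heart 1 at 8.79 lay above the E13.5 mutant heart 2 at 8.67, and the rise was not called in mutants with the same 3 hearts left out (0.66, limma adjusted p = 0.065).

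Fgf13 rose by 0.57 in mutants (limma adjusted p = 0.0037) and differed by 0.44 in controls, where the adjusted p was 0.017 and the fold change was under the threshold. In mutants it was 0.49, not called, without E11.5 heart 4 or with the same 3 hearts left out, and in controls 0.53, called, without E13.5 heart 1. Over all alternatives the Fgf13 estimate went down to 0.32 in mutants and 0.21 in controls, with limma adjusted p up to 0.060 and 0.23. Fgf14, at the floor at E11.5, reached 6.53, 6.47, 6.39 and 6.37 in E13.5 mutants and 6.29, 6.75, 6.96 and 6.98 in E13.5 controls. In controls its rise dropped to 0.50, not called, without E11.5 heart 2. Cardiomyocyte markers changed by a median of 0.32 in mutants and 0.37 in controls, and the part of cardiomyocytes in these values was not tested.

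The third set held a ligand and receptors. Fgf1 reached 8.72, 9.08, 8.95 and 8.72 in E13.5 mutants against 8.02, 7.43, 7.74 and 7.64 in E11.5 mutants, and 8.44, 8.93, 9.01 and 8.95 in E13.5 controls against 7.81, 7.84, 8.19 and 8.14 in E11.5 controls. It separated the stages fully and had the largest rise of any member in mutants, 1.16 (SE 0.16, limma adjusted p = 4.7e-05), beside 0.84 in controls (adjusted p = 6.7e-04). The difference between these changes was not called.

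Fgfr4 rose by 0.55 in mutants and 0.74 in controls (SE 0.12 each, limma adjusted p = 0.0021 and 2.2e-04), with no overlap of the stages. In mutants the rise was 0.47, and so not called, without E11.5 heart 1. Fgfr2 rose by 0.58 in controls (adjusted p = 0.0040) and differed by 0.31 in mutants (adjusted p = 0.090), and the control value was 0.45, not called, without E11.5 heart 2. Fgfr1 and Fgfrl1 passed the adjusted p without the fold threshold, at 0.48 and 0.39 in mutants and 0.37 and 0.43 in controls. In mutants Fgfr1 passed the fold threshold without E11.5 heart 1 or 2 (0.53 each) or E13.5 heart 2 (0.51), and with arrays centred on the median (0.53). Over all alternatives the Fgfr1 estimate went down to 0.23 in mutants and 0.12 in controls, with limma adjusted p up to 0.086 and 0.37. That of Fgfrl1 went down to 0.14 and 0.19, with adjusted p up to 0.36 and 0.22. Fgfr3 was the one receptor with a negative estimate. It was -0.26 in mutants, where the stages did not overlap and the adjusted p of 0.034 passed without the fold threshold, and -0.23 in controls (adjusted p = 0.057).

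Fgf15 and Fgf16 were the members called lower at E13.5, both in mutants, and for neither did the test of the difference between genotypes pass. Fgf15, the mouse counterpart of human FGF19, had 6.21, 6.54, 6.33 and 6.29 in E13.5 mutants against 6.72, 7.09, 7.87 and 7.03 in E11.5 mutants, and 6.36, 6.23, 6.14 and 6.63 in E13.5 controls against 7.50, 6.79, 6.45 and 6.81 in E11.5 controls. It fell by 0.83 in mutants (SE 0.23, limma adjusted p = 0.0098) and differed by -0.55 in controls (adjusted p = 0.069). In controls it was called without mutant E11.5 heart 3 (-0.55) or control E11.5 heart 3 (-0.70). The call in mutants was lost with the same 3 hearts left out (-0.56).

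Fgf16 had 5.65, 5.93, 5.41 and 5.84 in E13.5 mutants against 6.52, 6.58, 6.49 and 6.62 in E11.5 mutants, and 6.19, 6.05, 6.21 and 6.20 in E13.5 controls against 6.61, 6.85, 6.45 and 6.35 in E11.5 controls. The stages were apart in both genotypes, with a fall of 0.84 in mutants (SE 0.12, limma adjusted p = 1.0e-04) and a difference of -0.40 in controls. These values stand beside the olfactory receptor probe sets, of which 57.7% in mutants and 50.9% in controls were called lower at E13.5. Their part in the Fgf15 and Fgf16 values was not tested.

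The remaining ligands were not called at either genotype. Fgf8, Fgf9 and Fgf18 changed by -0.07, -0.05 and 0.17 in mutants and by -0.18, -0.15 and 0.12 in controls. Fgf2 differed by 0.48 in mutants and by 0.50 in controls, just under the fold threshold, and Fgf10 by -0.15 and -0.53 (limma adjusted p = 0.62 and 0.070). The Fgf10 estimate in mutants was 0.073 after quantile normalisation and 0.013 without E13.5 heart 3. In controls Fgf10 was called without control E11.5 heart 3 (-0.66), and without mutant E11.5 heart 1 or mutant E13.5 heart 1, which enter only through the variance (-0.53). Fgf3, Fgf4, Fgf5, Fgf6, Fgf7, Fgf17, Fgf20, Fgf21, Fgf22 and Fgf23 ran between -0.37 and 0.12 in mutants and between -0.39 and 0.36 in controls.

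The 3 genes with 2 probe sets gave 2 answers for the stage change. On probe set 10438626 Etv5 had 9.36, 8.90, 8.75 and 9.27 in E13.5 mutants against 7.96, 7.79, 8.08 and 8.24 in E11.5 mutants, and 9.18, 8.98, 8.99 and 9.08 in E13.5 controls against 8.16, 7.68, 7.92 and 8.40 in E11.5 controls. The stages were fully apart, with rises of 1.05 in mutants and 1.02 in controls (SE 0.16 each, limma adjusted p = 1.6e-04 and 2.0e-04). The brighter probe set 10363901 changed by 0.24 and 0.07, with no call. Platform identifiers run largely along the chromosomes: the 20 named probe sets nearest in number to 10438626 were all for genes of chromosome 16, where RefSeq places Etv5, while the 20 nearest to 10363901 were all for genes of chromosome 10. Of the 41 member probe sets, 38 had most of these neighbours on the chromosome of their gene, with 10363901 and those of Fgf14 and Spry3 the exceptions. What 10363901 detects was not tested.

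For Il17rd the dimmer probe set was at 7.03, 6.26, 6.74 and 6.28 in E13.5 mutants against 7.09, 7.21, 7.20 and 7.53 in E11.5 mutants, and at 6.50, 6.63, 6.43 and 5.98 in E13.5 controls against 7.39, 7.12, 7.84 and 7.34 in E11.5 controls. It fell by 0.68 in mutants and 1.04 in controls (SE 0.20 each, limma adjusted p = 0.013 and 8.1e-04), where the brighter one differed by -0.11 in both. At E13.5 the dimmer one averaged 6.58 in mutants and 6.39 in controls, close to the olfactory 95th percentile of 6.30. The olfactory receptor probe sets changed by a median of -0.61 in mutants and -0.56 in controls, and their part in this fall was not tested. The call in mutants was lost with the same 3 hearts left out (-0.57, adjusted p = 0.10). Spred2 fell by 0.60 in controls on its dimmer probe set (adjusted p = 0.0077) and differed by -0.49 in mutants. On the brighter it differed by -0.22 in controls and -0.10 in mutants. In mutants the dimmer one was called without E11.5 heart 1 or 3 or E13.5 heart 1 or 4 (between -0.60 and -0.50). It was also called there with quantile or cyclic loess normalisation, with the Y-linked covariate and without the fold threshold. Over all alternatives its estimate in mutants ran from -0.73 to -0.33. Etv4 differed by 0.31 in mutants and -0.02 in controls, with no call.

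**Figure D5:**
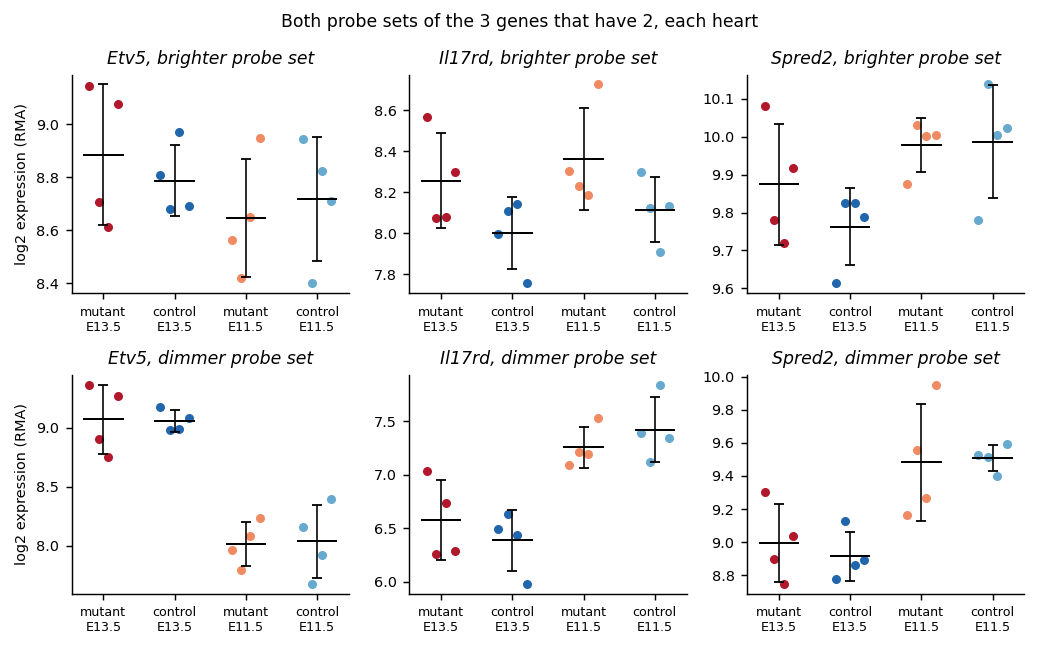
Log2 expression in each heart on the brighter (upper row) and dimmer (lower row) probe set of Etv5, Il17rd and Spred2. Dots are hearts, lines are means of 4 and bars are SD, with E13.5 to the left of E11.5. The dimmer probe set of Etv5 is higher in all E13.5 hearts and that of Il17rd lower in all E13.5 hearts of the same genotype, while the brighter ones overlap.

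Among genes outside the rule, the counts of stage calls in lists of the pathway are read beside the 15.3% of all probe sets called higher in each genotype, and nothing particular to the lists is drawn from them. Of 16 genes between receptor and ERK, 3 rose in mutants and 4 in controls, and 1, the adaptor gene Grb2, fell in controls (-0.58). Map2k1, the ERK kinase MEK1, rose by 0.96 in mutants and 1.12 in controls, Map2k2 (MEK2) by 0.63 and 0.65, and Nras by 0.75 and 0.76. Of 20 heparan sulphate genes 3 rose in mutants (Gpc1, Gpc4 and Sdc1, by 0.57, 0.61 and 0.77) and 6 in controls, where the sulphotransferase gene Hs6st2 fell (-0.55). Of 10 coreceptors and partners 2 rose in mutants and 4 in controls, where the adhesion molecule gene L1cam fell (-0.74). Of the 17 ERK-responsive genes 3 rose in mutants and 2 in controls, with Egr2 in both (0.79 and 0.92). The median change of these lists ran between -0.04 and 0.25 in mutants and between 0.03 and 0.33 in controls, beside -0.02 and -0.03 over all probe sets.

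Some members are neighbours in the genome, as RefSeq places them on GRCm38.p6. Fgf3, Fgf4 and Fgf15 follow one another on chromosome 7 with 0 protein-coding genes between them, and so do Fgf6 and Fgf23 on chromosome 6. Fgf2 and Spry1 on chromosome 3, and Spry4 and Fgf1 on chromosome 18, have 2 protein-coding genes between them. The stage changes of Fgf1 and Spry4 were 1.16 and 0.21 in mutants and 0.84 and 0.36 in controls, and those of Fgf2 and Spry1 were 0.48 and 0.23 in mutants and 0.50 and 0.18 in controls. Fgf15 fell by 0.83 in mutants, where Fgf3 and Fgf4 differed by -0.06 and -0.14. Whether neighbours change alike was not tested.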

How the data were processed

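Expression was measured on 16 arrays, 4 hearts for each genotype and stage. RMA from the affy package was run by the authors, who deposited log2 values of 34760 probe sets. Versions, and whether both stages were normalised together, are not given in the sources used here. Probe sets were named from the platform annotation, of which 1321 name several genes and 11799 none. A mean for each group was fitted with limma 3.58.1 in R 4.3.3 over all probe sets (12 residual degrees of freedom), with Benjamini-Hochberg adjustment over all of them. Intervals are 95%. Arrays carry no read depth, so precision is limited by the number of hearts. The members, lists and thresholds were chosen with earlier results of these data known. Members named by rule were those called or passing the unadjusted rule between genotypes, Fgfr1 to Fgfr4, Fgf10 and Etv4, and the largest changes between stages. Values for Fgf6, Fgf7, Fgf8, Fgf14, Fgf16, Fgf17, Fgf23, Fgf15 and the second probe sets were added after they were seen. Replicate numbers did not pair hearts: deviations of same-numbered hearts correlated between -0.06 and 0.008. Scripts were tested on simulated data. Alternatives covered normalisation, centring, weights, filters, thresholds, a Y-linked covariate, single stages and each heart left out.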

Additional observations from a re-analysis of the deposited data

Results flagged for a closer look

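Over the 41 probe sets, 164 groups of 4 hearts were searched for a heart far from the other 3, and 8 were found, where chance gives about 1 in 20 groups. In mutant hearts these were Fgf3 at E13.5 heart 3 (5.57, the others 6.28 to 6.39), Fgf6 at E11.5 heart 1 (5.59, the others 6.12 to 6.16) and Fgfr3 at E11.5 heart 4 (8.03, the others 7.92 to 7.94). In control hearts they were Fgf1 at E13.5 heart 1 (8.44, the others 8.93 to 9.01), Fgf11 at E11.5 heart 3 (7.16, the others 7.54 to 7.58), Fgf16 at E13.5 heart 2 (6.05, the others 6.19 to 6.21), Spred3 at E11.5 heart 3 (7.59, the others 7.25 to 7.28) and Spry2 at E13.5 heart 5 (9.05, the others 9.22 to 9.24). Fgf3, Fgf6 and Fgf16 are near the olfactory floor.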

How the results depend on the processing

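Between genotypes the count of members called was 0 under every alternative tried except unadjusted p-values, which gave 1 higher and 2 lower at E11.5, 1 higher for the average, and 1 higher (Fgf17) and 1 lower (Fgf6) for the difference of the effects. Leaving out each heart in turn kept these counts at 0. Between the stages, leaving out a heart gave 8 to 11 members higher and 2 lower in mutants, and 7 to 11 higher and 0 to 2 lower in controls. The count of members lower in controls was 1 with array weights (Fgf15) or with the median over each gene's probe sets (Il17rd), 2 with unadjusted p or any probe set of a gene, and 3 without the fold threshold (Fgf16, Fgf17, Fgf22). In mutants it was 1 without dim probe sets (Fgf15), or with 3 hearts left out together (Fgf16), a choice made after seeing the data, as was the count over any probe set.

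Estimates that changed sign were all uncalled. Fgf10 between the stages in mutants was 0.073 after quantile and 0.072 after cyclic loess normalisation, with -0.34 to 0.013 over the hearts left out. Fgf10 at E13.5 ran from -0.34 to 0.0095 and Fgfr2 at E13.5 from -0.085 to 0.0012 with a heart left out, and Fgfr1 at E11.5 was 0.088 with the 3 hearts left out. With the replicate block, Fgfr4 at E13.5 was -0.020, and the counts were unchanged: 0 between genotypes, and 9 higher in each genotype between the stages. Etv1, called lower for the average, was not called with the block (-0.63) or the Y-linked covariate (-0.57). Quantile and cyclic loess normalisation brought Dusp6 in both genotypes, Fgfr2 in controls and Fgf13 in mutants under the fold threshold. Both brought the dimmer probe set of Spred2 in mutants over it. The shift of the median over all probe sets stayed under 0.1 in each scaling. With 4 hearts a group, the interval between genotypes lay within 0.5 of 0 for 20 members at E11.5 and 23 at E13.5.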
